A study of Mus musculus with 30 samples.

Results

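Interstitial collagens build the fibrils, filaments and networks of loose connective tissue. The set examined here holds 10 collagen chain genes, *Col1a1*, *Col1a2*, *Col3a1*, *Col5a1*, *Col5a2*, *Col6a1*, *Col6a3*, *Col8a1*, *Col12a1* and *Col14a1*, which were matched by gene name among the 20569 protein-coding genes of the count table. All 10 were found and all 10 passed the filter on low counts in every comparison. Their mRNA was followed in forelimb buds of wild-type Swiss Albino mouse embryos, whose mothers were injected at E10.5 with DMSO (the solvent control) or with Wnt-C59, an inhibitor of the enzyme porcupine that WNT ligands need to be secreted. Forelimb buds were collected 1, 6, 12, 18 or 24 h later, which gives 10 groups of 3 libraries and 30 libraries in all. Every group shares the wild-type genotype and the injection of the mother. Both injections contained DMSO, but by the study's methods C59 was given in a buffer that also held methylcellulose and Tween-20 and the controls in plain buffer, so the drug and its vehicle cannot be told apart. Each library was made from the whole forelimb buds of an embryo, without separation of mesenchyme, ectoderm, muscle precursors, vessels and blood. In such bulk samples, fewer cells of a type and less RNA per cell cannot be told apart.

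Collagen chains are made as procollagens that are hydroxylated and folded into triple helices in the endoplasmic reticulum, secreted, trimmed and crosslinked outside the cell. Types I and III form the bulk of the fibrils in embryonic connective tissue, type V sits inside them and limits their width, types XII and XIV decorate their surface, and types VI and VIII form beaded filaments and hexagonal networks. In the limb bud they are made mainly by mesenchyme, and condensing cartilage progenitors lower their type I output while type II collagen takes over.

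Total counts ran from 18188636 to 38974885 per library. *Axin2*, the feedback gene that reads out WNT/β-catenin signaling, had log2 fold changes between C59 and DMSO of -0.19, -1.97, -1.45, -0.16 and -0.08 in order of time. It passed the edgeR test at 1 h, 6 h and 12 h (adjusted p = 0.0282, 7.55e-11 and 1.40e-07) and did not at 18 h and 24 h (0.333 and 0.507). The 5 limb mesenchyme markers, among them *Prrx1* and *Tbx5*, were all counted in every group. The third C59 library at 18 h stood apart from the other C59 libraries of that time (chi-square per degree of freedom 45.5 against the first, while the closest pair of replicates of the series lay at 3.13), and the main 18 h results are therefore also given without it. The study's methods state that replicates of a condition and time came from several litters, and which library belongs to which litter is not given in the sources used here.

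Gene positions are those of GENCODE M21 on GRCm38. *Col1a1* spans chr11:94936224-94953042 and *Col1a2*, which encodes its partner chain, chr6:4504814-4541544. *Col3a1* (chr1:45311538-45349706, plus strand) and *Col5a2* (chr1:45374321-45503282, minus strand) are direct protein-coding neighbours, and *Col6a3* lies on the same chromosome at chr1:90765923-90843971. *Col5a1* spans chr2:27886425-28039514 and shares exonic bases with the antisense noncoding genes *2810430I11Rik* and *Gm13372*. Since the strand of counting was not stated, reads of these antisense genes cannot be told apart from *Col5a1* reads. The remaining members are *Col6a1* at chr10:76708792-76726168, *Col8a1* at chr16:57624258-57754737, *Col12a1* at chr9:79598991-79718831 and *Col14a1* at chr15:55307750-55520803.

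RefSeq promoter sequences (GRCm38.p6) were matched for 6 of the 10 genes, *Col1a2*, *Col3a1*, *Col5a1*, *Col6a1*, *Col6a3* and *Col8a1*. The 180 bases directly upstream of the transcription start are shown for a gene that fell after C59 (*Col3a1*), a fibrillar gene that rose (*Col5a1*) and the gene with the largest increase (*Col8a1*), since these genes share a tissue but moved apart. Capitals mark every match to the motifs searched on both strands, namely the TATA box letters TATAAA, the CCAAT box, the GC box letters GGGCGG, the TCF/LEF core letters CTTTGA and the SOX core letters CTTTGT. The *Col3a1* window is chr1:45311358-45311537 on the plus strand, the *Col5a1* window chr2:27886245-27886424 on the plus strand and the *Col8a1* window chr16:57754738-57754917 on the minus strand, each written 5′ to 3′ along its gene.
Col3a1: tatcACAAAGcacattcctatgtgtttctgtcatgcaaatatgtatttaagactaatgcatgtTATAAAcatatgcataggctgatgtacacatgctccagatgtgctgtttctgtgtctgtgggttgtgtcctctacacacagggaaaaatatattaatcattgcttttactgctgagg
Col5a1: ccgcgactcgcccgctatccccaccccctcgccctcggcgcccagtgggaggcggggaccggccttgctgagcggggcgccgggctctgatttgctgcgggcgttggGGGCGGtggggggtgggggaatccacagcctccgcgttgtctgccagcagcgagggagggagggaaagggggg
Col8a1: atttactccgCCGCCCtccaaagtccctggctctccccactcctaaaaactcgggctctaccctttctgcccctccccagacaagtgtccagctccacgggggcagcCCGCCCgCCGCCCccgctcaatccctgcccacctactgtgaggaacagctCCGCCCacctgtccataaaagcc
Counted from the transcription start, *Col3a1* had a TATAAA match at -117 and the SOX core letters on the opposite strand at -176. *Col5a1* had GC box letters at -73 and, upstream of the bases shown, on the opposite strand at -205, and *Col8a1* had them on the opposite strand at -170, -73, -66 and -23. Over the 250 bases upstream of all 32851 promoters in the table, the TATA box letters were present in 12.4%, the CCAAT box in 33.8%, the GC box in 32.7%, the TCF/LEF core in 13.8% and the SOX core in 16.5%. Of the 6 members, *Col6a1* had the TCF/LEF core letters (at -78), *Col1a2* had CCAAT at -109 and GC box letters at -205 and -188, and *Col6a3* had no match. A match describes the letters of a window.

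Per length, type I and type III transcripts dominated at all times. In DMSO-treated forelimb buds at 24 h, the FPKM level (fragments mapped to a gene, scaled to its length and to library depth) was 187 ± 6.95 for *Col1a2* (SD, n = 3 here and for all later group values), 159 ± 3.44 for *Col3a1* and 78.2 ± 4.47 for *Col1a1*. The type V chains *Col5a2* (32.7 ± 4.05 FPKM) and *Col5a1* (30.7 ± 2.21 FPKM) came next and their libraries overlapped, so their order was not settled. *Col6a1* (13.9 ± 0.782 FPKM), *Col12a1* (9.08 ± 1.87 FPKM), *Col6a3* (6.13 ± 0.614 FPKM), *Col8a1* (4.53 ± 0.183 FPKM) and *Col14a1* (3.31 ± 0.640 FPKM) followed without overlap between neighbours. At 1 h the order differed at the top and at the bottom. *Col3a1* (90.7 ± 3.18 FPKM) and *Col1a2* (89.7 ± 2.05 FPKM) overlapped, as did *Col5a2* with *Col1a1*, and *Col8a1* was last at 0.0706 ± 0.0143 FPKM, on 9 to 12 counts per library. The summed FPKM of the 10 genes grew from 247 ± 10.4 at 1 h to 524 ± 22.0 at 24 h in DMSO and from 233 ± 2.66 to 446 ± 42.4 in C59.

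All 10 genes rose between 1 h and 24 h in DMSO-treated buds, at an edgeR adjusted p below 0.05 (the rule for "rose", "fell" and "changed" in the text), where 30.2% of all tested genes rose. With the additional requirement of a log2 fold change beyond 1, the threshold that the study used and that is written as "called" here, 7 of 10 were called higher, against 10.6% of all tested genes. The median log2 fold change was 1.51 for the 10 genes and -0.0018 for all genes. *Col8a1*, a short-chain collagen of vessel walls and of membranes such as that beneath the corneal endothelium, rose by far the most, by 5.95 ± 0.14 (SE) on the log2 scale (adjusted p = 4.52e-13 in edgeR). The beaded-filament gene *Col6a1* rose by 2.34 ± 0.07 and the fibril-surface gene *Col14a1* by 2.32 ± 0.16. The genes that rose least were *Col5a2* (0.38 ± 0.08), *Col3a1* (0.73 ± 0.05) and *Col1a2* (0.99 ± 0.04), which were not called by fold.

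In C59-treated buds the same comparison of 24 h with 1 h gave 10 of 10 genes higher (28.4% of all genes rose) and 7 of 10 called (11.4% of all genes), with log2 fold changes from 0.33 for *Col5a2* to 5.83 for *Col8a1*. The called genes were *Col1a1*, *Col5a1*, *Col6a1*, *Col6a3*, *Col8a1*, *Col12a1* and *Col14a1*, as in DMSO. *Col1a1* rose by 1.05 ± 0.10 with C59 and by 1.69 ± 0.06 with DMSO, and *Col14a1* by 1.08 ± 0.19 with C59 and by 2.32 ± 0.16 with DMSO. Without the third C59 library at 24 h, which was the highest of its group for 9 of 10 members, 4 of 10 genes were called in C59. Shares of all genes were taken with all libraries in place, and none is given for counts with a library left out.

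**Figure D1:**
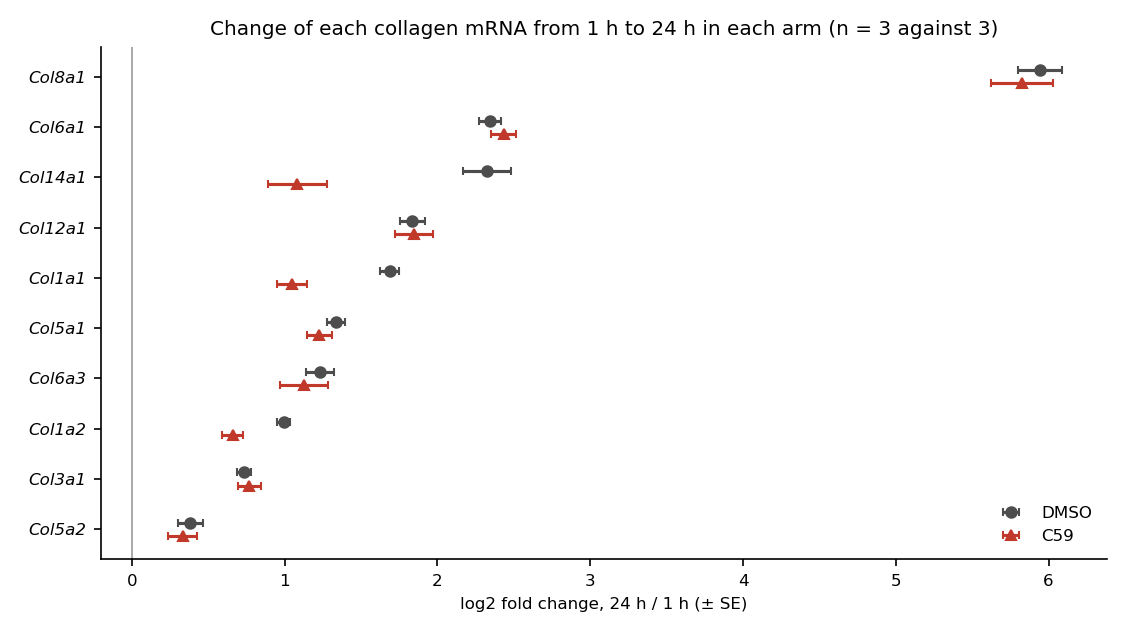
Log2 fold change from 1 h to 24 h after injection (x axis, edgeR, ± SE) of each collagen gene in DMSO (grey circles) and C59 (red triangles), 3 libraries against 3. All genes lie to the right of 0 in both arms, from 0.38 for *Col5a2* to 5.95 for *Col8a1* in DMSO, and *Col1a1* and *Col14a1* lie further left in C59.

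After C59 treatment the collagen genes changed in both directions at 6 h and 12 h, and those that changed at 24 h fell. At 1 h, 0 of 10 genes rose (1.14% of all genes did) and 1 fell (1.61%), and none was called (0.283%). At 6 h, 4 rose (8.20%) and 2 fell (11.4%), with none called (1.17%). At 12 h, 5 rose (22.0%) and 1 fell (25.5%), and 1 was called (4.95%). At 18 h, 2 rose (3.46%) and 0 fell (3.62%), with none called (1.29%). Without the third C59 library of 18 h, 3 rose and 0 fell there (no share of all genes is given), *Col12a1* being the added gene. The median log2 fold change was then 0.11. At 24 h, 0 rose (2.88%) and 4 fell (3.56%), with none called (0.819%). The edgeR quasi-likelihood test gave each count, and the percentages are the shares of all 13076 to 13675 tested genes under the same rule. The median log2 fold change of the 10 genes was -0.05, 0.20, 0.27, 0.12 and -0.12 in order of time, while that of all genes stayed between 0.00 and 0.02.

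**Figure D2:**
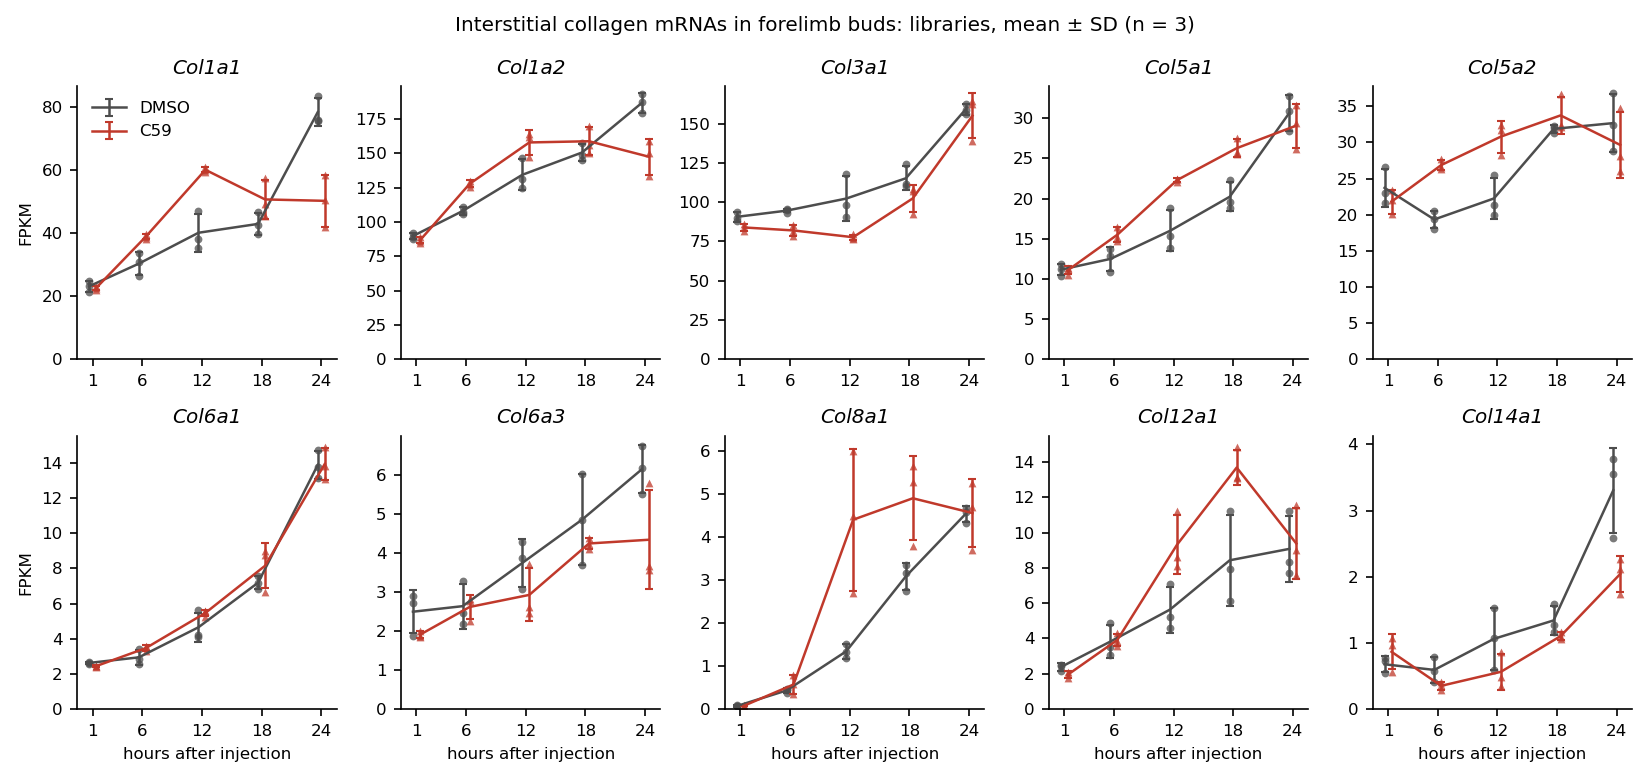
FPKM (y axis, from 0) of the 10 collagen genes in each library against hours after injection (x axis), DMSO in grey circles and C59 in red triangles, with lines through the group means and bars for the SD (n = 3). *Col1a1*, *Col5a1*, *Col5a2* and *Col8a1* run higher in C59 at 12 h, *Col3a1* runs lower, and at 24 h *Col1a1* is at 50.1 FPKM in C59 and 78.2 FPKM in DMSO.

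**Figure D3:**
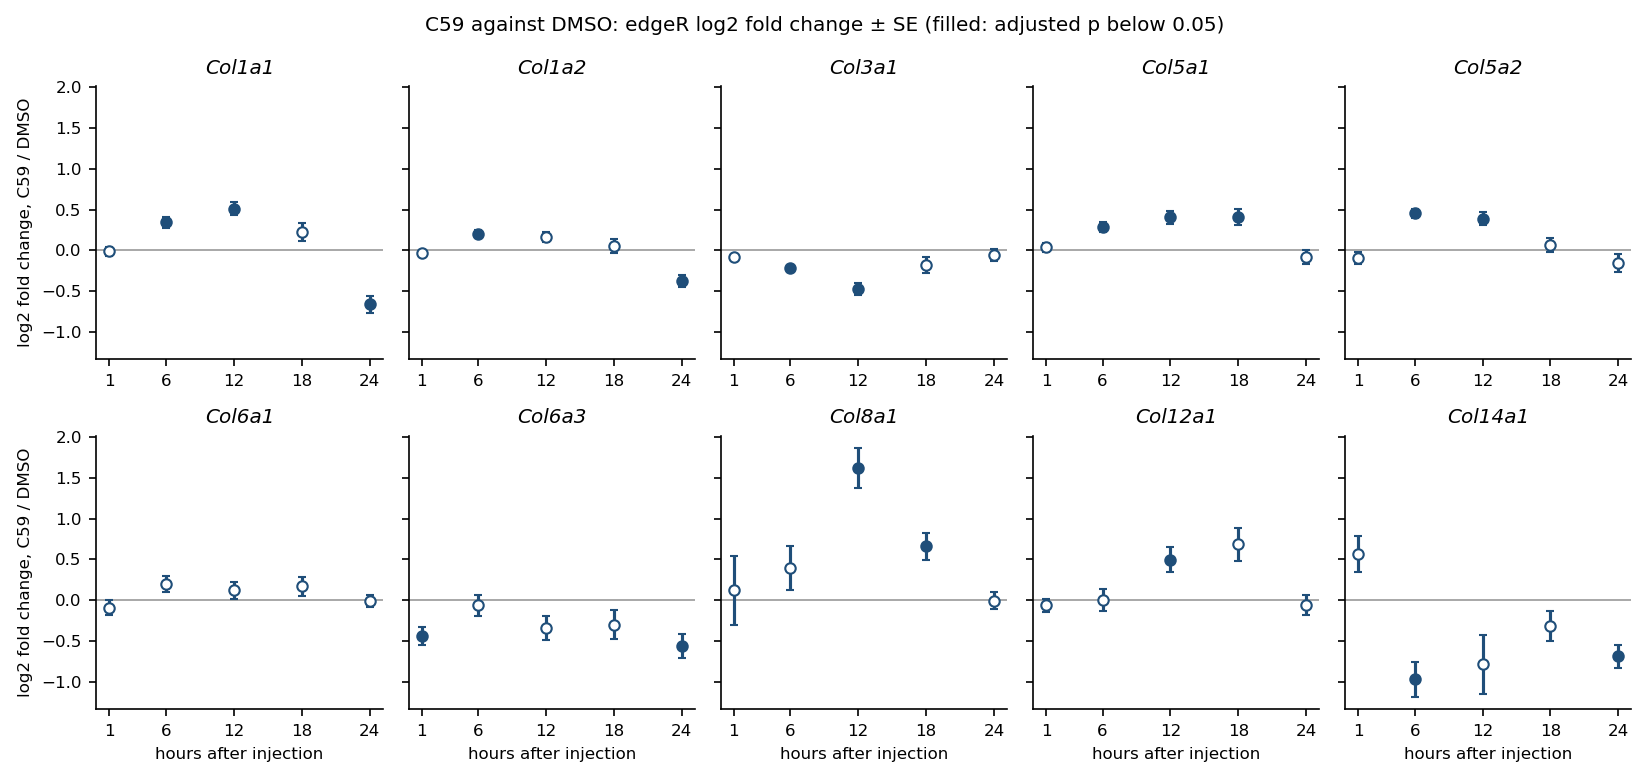
Log2 fold change of C59 against DMSO (y axis, edgeR, ± SE) at each time after injection (x axis) for the 10 genes, with filled points where the adjusted p was below 0.05. *Col8a1* at 12 h (1.62) is the single value beyond 1, and *Col1a1* changes from 0.51 at 12 h to -0.66 at 24 h.

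Type I collagen is a trimer of alpha chains encoded by *Col1a1* and *Col1a2*. At 6 h *Col1a1* stood at 39.6, 38.2 and 38.6 FPKM in the C59 libraries and at 30.8, 33.5 and 26.4 FPKM in the DMSO libraries. At 12 h the C59 values were 59.9, 60.8 and 59.2 FPKM and the DMSO values 37.9, 46.8 and 35.4 FPKM. All C59 libraries were above all DMSO libraries at both times, and the C59 values at 12 h lay closer together than the DMSO values. *Col1a1* was 1.27-fold higher at 6 h (log2 fold change 0.35 ± 0.07, edgeR adjusted p = 0.00301) and 1.43-fold higher at 12 h (0.51 ± 0.08, adjusted p = 0.000415). At 24 h the order was turned: C59 libraries held 50.5, 41.7 and 58.2 FPKM and DMSO libraries 83.4, 75.5 and 75.9 FPKM. *Col1a1* fell by 0.66 ± 0.11 on the log2 scale there (adjusted p = 0.00343 in edgeR), again without overlap. Between 12 h and 24 h its mean FPKM thus grew from 40.0 to 78.2 in DMSO and went from 59.97 to 50.1 in C59.

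*Col1a2* followed *Col1a1* with smaller differences. At 6 h it stood at 130, 128 and 125 FPKM with C59 and at 106, 111 and 107 FPKM with DMSO, an increase of 0.20 ± 0.05 on the log2 scale (edgeR adjusted p = 0.00791) that did not pass without the first C59 library (adjusted p = 0.0539). At 12 h the groups overlapped (164, 162 and 147 FPKM against 131, 147 and 125 FPKM) and the log2 fold change of 0.16 ± 0.06 had an edgeR adjusted p of 0.0557. This value sits at the threshold: it passed with DESeq2 (adjusted p = 0.0258), and the difference was 0.22 without the second DMSO library (edgeR adjusted p = 0.0111) or without the third C59 library (0.0137). At 24 h C59 libraries held 159, 133 and 150 FPKM and DMSO libraries 193, 188 and 179 FPKM, and *Col1a2* fell by 0.37 ± 0.07 (adjusted p = 0.00932 in edgeR; 0.0612 without the first DMSO library).

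*Col3a1* encodes the chain of the homotrimeric type III collagen, which forms thin fibrils together with type I. It was the fibrillar member that fell at 6 h and 12 h. At 6 h the C59 libraries held 78.6, 85.7 and 81.8 FPKM and the DMSO libraries 93.4, 95.4 and 95.0 FPKM. At 12 h they held 76.9, 76.8 and 79.5 FPKM against 98.3, 118 and 90.3 FPKM. No C59 library reached a DMSO library at either time. *Col3a1* fell by 0.22 ± 0.05 on the log2 scale at 6 h (edgeR adjusted p = 0.00423) and by 0.48 ± 0.08 at 12 h (adjusted p = 0.000491). At 18 h its log2 fold change was -0.18 ± 0.10 (edgeR adjusted p = 0.301, or -0.20 without the third C59 library, adjusted p = 0.133), and all C59 libraries were still below all DMSO libraries. At 24 h it was -0.06 ± 0.08 (adjusted p = 0.697), with overlapping libraries. In C59 the *Col3a1* level was 83.9 ± 2.39 FPKM at 1 h, 77.7 ± 1.52 FPKM at 12 h and 155 ± 14.2 FPKM at 24 h.

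The type V chains are encoded by *Col5a1* and *Col5a2*, the latter next to *Col3a1* on chromosome 1. *Col5a2* rose at 6 h, with 26.6, 27.7 and 26.3 FPKM in C59 and 18.1, 20.5 and 19.4 FPKM in DMSO, and at 12 h, with 28.3, 31.7 and 32.5 FPKM against 21.3, 25.5 and 20.0 FPKM. The groups did not overlap at either time. The log2 fold change was 0.45 ± 0.06 at 6 h (edgeR adjusted p = 9.53e-05) and 0.39 ± 0.08 at 12 h (adjusted p = 0.00283), so the neighbours *Col5a2* and *Col3a1* changed in opposite directions at both times. *Col5a1* rose at 6 h (14.7, 16.5 and 15.3 FPKM against 12.9, 13.8 and 10.8 FPKM; log2 fold change 0.29 ± 0.06, adjusted p = 0.00595) and at 12 h, when C59 libraries held 22.0, 22.5 and 22.4 FPKM and DMSO libraries 15.3, 18.8 and 13.9 FPKM. The 12 h difference was 0.40 ± 0.08 on the log2 scale (edgeR adjusted p = 0.00217). At 18 h *Col5a1* still stood higher in C59, at 25.7, 25.5 and 27.5 FPKM against 18.8, 22.3 and 19.5 FPKM. That increase of 0.41 ± 0.10 (adjusted p = 0.0466 in edgeR) was at 0.40 with an adjusted p of 0.0236 without the third C59 library, but leaving out any other library of that time gave adjusted p-values from 0.0534 to 0.209. Neither type V gene passed the test at 24 h (log2 fold change -0.08 for *Col5a1* and -0.15 for *Col5a2*).

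Type VI collagen forms beaded filaments around cells from chains encoded by *Col6a1*, *Col6a2* and *Col6a3* or related genes. *Col6a1* did not pass the test at any time, with log2 fold changes of -0.09, 0.20, 0.12, 0.17 (0.12 without the third C59 library) and -0.01 from 1 h to 24 h. Leaving out the second DMSO library, which was the highest of its group for all 10 genes at 6 h and at 12 h, moved *Col6a1* to 0.32 at 6 h (edgeR adjusted p = 0.0207) and to 0.26 at 12 h (adjusted p = 0.0198). *Col6a3* had a negative log2 fold change at every time and fell at 1 h and 24 h. At 12 h it was -0.34 ± 0.15 (edgeR adjusted p = 0.0863), with -0.46 (0.0381) without the third DMSO library and -0.52 (0.0134) without the second C59 library. Its C59 libraries held 2.003, 1.86 and 1.84 FPKM at 1 h and its DMSO libraries 2.71, 1.86 and 2.91 FPKM, and at 24 h the values were 3.55, 3.65 and 5.79 FPKM against 6.72, 5.50 and 6.17 FPKM. By FPKM the groups overlap at both times, by normalized counts they do not. The decreases were 0.44 ± 0.11 (edgeR adjusted p = 0.0434) and 0.56 ± 0.14 (adjusted p = 0.0388) on the log2 scale. Neither holds firmly: the adjusted p was above 0.05 without any of the first and the third libraries of either group at 1 h (0.0812 to 0.181) and without any library other than the third C59 library at 24 h (0.0667 to 0.156).

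*Col8a1* had the largest response to C59 in the set. At 12 h its C59 libraries held 6.00, 4.50 and 2.71 FPKM and its DMSO libraries 1.18, 1.52 and 1.33 FPKM. All C59 libraries were higher and they were spread more widely than the DMSO libraries, on 369 to 692 counts against 158 to 183. The difference was 3.08-fold (log2 fold change 1.62 ± 0.24, edgeR adjusted p = 0.000347), larger than that of 99.2% of all tested genes, and it stayed between 1.36 and 1.89 on the log2 scale when any library was left out. At 6 h the groups overlapped (0.790, 0.580 and 0.342 FPKM against 0.374, 0.476 and 0.448 FPKM; log2 fold change 0.39 ± 0.27, adjusted p = 0.343). At 18 h *Col8a1* stood at 5.27, 5.64 and 3.79 FPKM in C59 and at 3.15, 3.35 and 2.75 FPKM in DMSO, a log2 difference of 0.66 ± 0.16 (edgeR adjusted p = 0.0441) that was 0.81 (adjusted p = 0.00152) without the third C59 library and did not pass without any other library (0.0841 to 0.180). At 24 h the groups overlapped, with means of 4.55 ± 0.785 FPKM in C59 and 4.53 ± 0.183 FPKM in DMSO (log2 fold change -0.01 ± 0.11).

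Types XII and XIV are fibril-associated collagens with interrupted triple helices (FACIT). *Col12a1* rose at 12 h, with 8.59, 11.2 and 8.13 FPKM in C59 and 5.24, 7.09 and 4.58 FPKM in DMSO. The log2 fold change was 0.50 ± 0.16 (edgeR adjusted p = 0.0237) and the groups, apart by FPKM, overlapped by normalized counts. The increase did not pass with DESeq2 (adjusted p = 0.0864), nor in edgeR without the first DMSO library (0.0682), the third DMSO library (0.0994) or the second C59 library (0.0789). At 18 h it held 14.8, 13.2 and 13.1 FPKM against 6.12, 11.2 and 7.96 FPKM, with no overlap and a log2 fold change of 0.69 ± 0.20. The edgeR adjusted p was 0.0777 there, 0.0417 without the third C59 library (log2 fold change 0.76) and 0.0358 without the second DMSO library (0.94).

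*Col14a1*, the rarest chain in late DMSO buds, went the other way. At 6 h it stood at 0.369, 0.404 and 0.282 FPKM with C59 and at 0.579, 0.793 and 0.404 FPKM with DMSO, and it fell by 0.97 ± 0.21 on the log2 scale (edgeR adjusted p = 0.00558). All C59 libraries lay below all DMSO libraries by normalized counts, and the difference passed the fold threshold without the third DMSO library (-1.08) or the second C59 library (-1.10). By FPKM values this rare transcript did not pass the test at 6 h (limma on log2 of FPKM plus 1, adjusted p = 0.134). At 12 h the groups overlapped (0.478, 0.866 and 0.346 FPKM against 1.07, 1.52 and 0.588 FPKM; log2 fold change -0.79 ± 0.36, adjusted p = 0.0917), and the value depended on the second DMSO library (-0.33 without it) and on the third (-1.08 without it, adjusted p = 0.0264). At 24 h it held 2.12, 1.74 and 2.27 FPKM in C59 and 3.55, 2.58 and 3.79 FPKM in DMSO, without overlap, and fell by 0.69 ± 0.14 (adjusted p = 0.0150 in edgeR; 0.0703 without the first and 0.0693 without the third DMSO library).

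Whether the C59 effect itself differed between times was tested as an interaction of treatment and time. Between 6 h and 12 h, 0 of 10 genes passed an adjusted p of 0.05 in edgeR, against 18.1% of all genes. *Col8a1* came nearest with a change of 1.22 ± 0.42 on the log2 scale (adjusted p = 0.0570), and it and *Col3a1* were the 2 genes with an unadjusted p below 0.05. Between 12 h and 18 h, 0 of 10 passed as well (8.49% of all genes), with 3 at an unadjusted p below 0.05 (*Col3a1*, *Col5a2* and *Col8a1*). With the fold threshold added, DESeq2 called 0 of 10 in both contrasts. In edgeR that count ran from 0 to 1 in both when single libraries were left out. It was 1 from 6 h to 12 h with upper-quartile factors, no filter, limma at either pseudocount, all 30 libraries or the replicate block. From 12 h to 18 h, 0 of 10 passed without the third C59 library of 18 h (no share of all genes is given). Between 18 h and 24 h, 3 genes passed towards lower values (3.43% of all genes) and 0 towards higher values (3.53%). These were *Col1a1* (-0.90 ± 0.17, adjusted p = 0.00812), *Col1a2* (-0.44 ± 0.11, adjusted p = 0.0236) and *Col5a1* (-0.50 ± 0.14, adjusted p = 0.0459). *Col1a2* and *Col5a1* no longer passed in edgeR when any of several libraries was left out (adjusted p up to 0.0705 and 0.132). Without the third C59 library of 18 h, 5 genes passed towards lower values, a count for which no share of all genes is given. The added ones were *Col8a1* (-0.83, edgeR adjusted p = 0.00444) and *Col12a1* (-0.84, 0.0488).

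The contrast between 12 h and 24 h was added after the values had been seen. There, 5 genes passed towards lower values (17.7% of all genes) and 1 towards higher values (19.2%). The effect on *Col8a1* changed by -1.63 ± 0.29 and that on *Col1a1* by -1.18 ± 0.15, the type V genes *Col5a1* and *Col5a2* by -0.50 ± 0.13 and -0.55 ± 0.16, and *Col1a2* by -0.54 ± 0.10. *Col3a1* was the gene whose C59 effect moved up, by 0.41 ± 0.12 (edgeR adjusted p = 0.0111).

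C59-treated buds at 12 h were also set against DMSO-treated buds at 24 h, to see how the raised levels compare with those reached later in controls. In this comparison 7 of 10 genes were lower (20.1% of all genes), and 4 were called lower (3.29%). *Col8a1* (log2 difference -0.03 ± 0.20), *Col12a1* (-0.01 ± 0.13) and *Col5a2* (-0.06 ± 0.08) overlapped between C59 at 12 h and DMSO at 24 h and did not pass the test. The log2 difference was -0.36 ± 0.05 for *Col1a1*, -0.40 ± 0.05 for *Col5a1* and -0.22 ± 0.05 for *Col1a2*. The called genes were *Col3a1* (-1.01 ± 0.04), *Col6a1* (-1.33 ± 0.06), *Col6a3* (-1.06 ± 0.13) and *Col14a1* (-2.44 ± 0.22). *Col3a1* and *Col6a3* were at the threshold. When single libraries were left out, they ran from -1.03 to -0.993 and from -1.25 to -0.919. Without the first C59 library 2 of 10 were called. The DMSO 24 h libraries are the same in this comparison, in the comparison with C59 at 24 h and in the time course.

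The proportions between chains of a type moved with time and with C59. Ratios of FPKM are described by their ranges, since the smallest p an exact permutation test allows here is 0.1. *Col1a1* per *Col1a2* was 0.257 ± 0.0131 in DMSO at 1 h and 0.419 ± 0.0153 at 24 h. At 12 h it was 0.365, 0.375 and 0.402 in C59 and 0.288, 0.319 and 0.284 in DMSO. At 24 h it was 0.318, 0.313 and 0.387 in C59 and 0.432, 0.402 and 0.423 in DMSO. C59 thus stood above DMSO in all libraries at 12 h and below it in all libraries at 24 h. The size of the ratio depends on the length used, while *Col1a1* stayed below *Col1a2* in all groups: with counts per kilobase of merged exons the ratio in DMSO at 24 h was 0.903.

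*Col5a1* per *Col5a2* went from 0.471 ± 0.0228 at 1 h to 0.943 ± 0.0490 at 24 h in DMSO and from 0.510 ± 0.0594 to 0.987 ± 0.0688 in C59, with overlap between the arms at both times. *Col6a1* per *Col6a3* went from 1.09 ± 0.274 to 2.27 ± 0.108 in DMSO and reached 3.35 ± 0.690 in C59 at 24 h, where the C59 libraries (3.90, 3.58 and 2.57) were all above the DMSO libraries (2.19, 2.39 and 2.23). The ratio of *Col3a1* to *Col1a1*, a proportion of type III to type I mRNA that was chosen after the values had been seen, is given last. It was 1.28, 1.26 and 1.34 in C59 at 12 h and 2.59, 2.52 and 2.56 in DMSO, and 3.22, 3.32 and 2.82 in C59 at 24 h and 1.95, 2.07 and 2.09 in DMSO. The position of the arms was therefore exchanged between 12 h and 24 h without overlap at either time. By counts per kilobase of merged exons the means were 0.751 in C59 and 1.49 in DMSO at 12 h and 1.80 and 1.18 at 24 h, so the order of the arms was kept, while in C59 at 12 h the order of the genes depends on the length used.

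**Figure D4:**
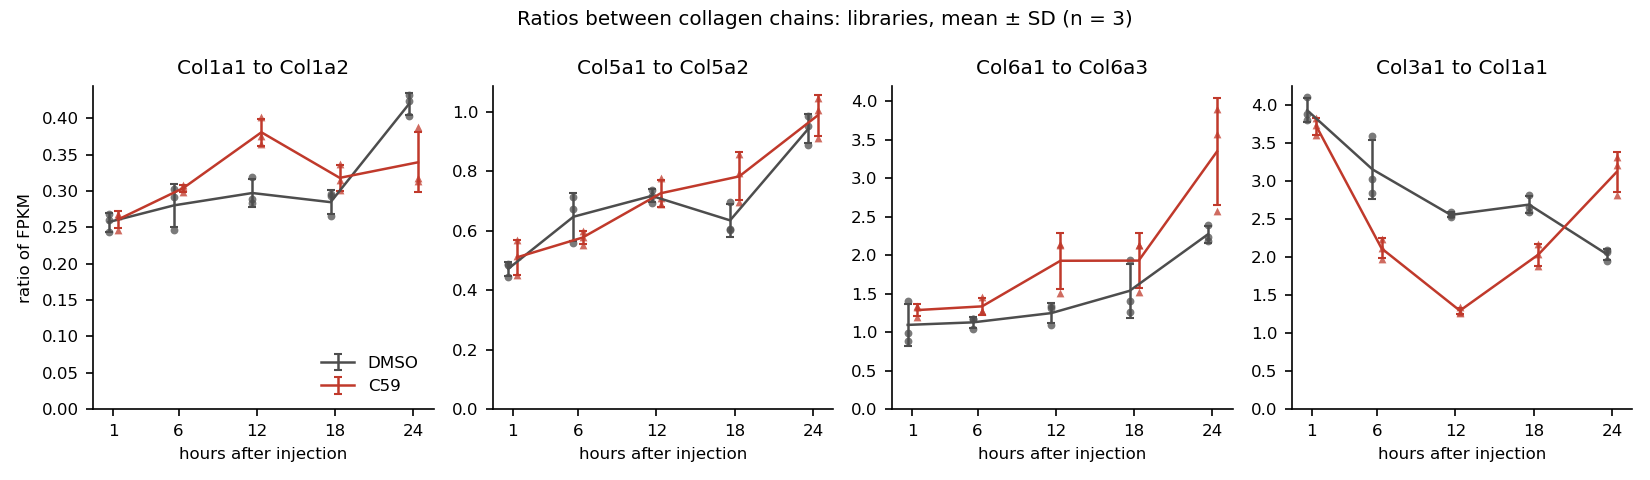
Ratios of FPKM between collagen chains (y axes, from 0) in each library against hours after injection (x axis), DMSO in grey circles and C59 in red triangles, with lines through group means and bars for the SD (n = 3). *Col3a1* to *Col1a1* lies at 1.30 in C59 and 2.56 in DMSO at 12 h and at 3.12 and 2.04 at 24 h.

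Other collagen genes are given as counts, to be read against the 22.0% of all tested genes that rose and the 25.5% that fell at 12 h. Of the other fibrillar genes, all 6 were tested at 12 h and 3 rose, among them *Col2a1*, the type II gene of cartilage (log2 fold change 1.05 ± 0.12), and *Col5a3* (1.34 ± 0.42), both called, and *Col27a1* had the lowest value (-0.07 ± 0.15). Of the 7 other FACIT genes 4 rose, with *Col9a2* (1.32 ± 0.17) and *Col9a3* (1.505 ± 0.18), which decorate type II fibrils, called and *Col22a1* lowest (0.10 ± 0.17). Of 5 tested network and beaded-filament genes 2 rose, with *Col8a2*, the partner of *Col8a1*, at 0.66 ± 0.22, and 2 fell, with *Col6a6* at -1.45 ± 0.40. Basement membrane genes showed 1 higher (*Col15a1*, 0.23 ± 0.06) and 1 lower (*Col7a1*, -0.49 ± 0.11) of 5, which is close to these shares. Of the 4 transmembrane genes 3 rose, *Col17a1* of epithelial hemidesmosomes by 1.02 ± 0.18, and *Col13a1* was lowest at -0.44 ± 0.22. In DMSO from 1 h to 24 h, 5 of 6 fibrillar, 6 of 7 network and 6 of 7 FACIT genes rose, where 30.2% of all tested genes rose. Of 6 basement membrane genes 3 rose and 3 fell, and for those that fell no share of all genes is given.

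The genes that make, trim and organise collagen were examined as lists against the same shares. Of 18 genes for chain hydroxylation, glycosylation and folding, 10 rose at 12 h and 0 fell (median log2 fold change 0.20, all genes 0.02), with the prolyl hydroxylase subunit *P4ha3* highest at 0.99 ± 0.19 and the galactosyltransferase *Colgalt1* lowest at -0.12 ± 0.05. Of 8 genes for procollagen secretion 3 rose and 2 fell, *Creb3l2* by 0.85 ± 0.06 and *Sec13*, a coat protein of transport vesicles, by -0.39 ± 0.05. Of 12 tested genes for propeptide removal and crosslinking 5 rose, with the lysyl oxidase *Lox* highest (0.80 ± 0.21), and *Pcolce2*, an enhancer of propeptide removal, was the gene that fell (-0.67 ± 0.14). At 24 h 0 of 13 propeptide and crosslinking genes passed the edgeR test in either direction (lowest adjusted p = 0.0558), where 2.88% of all tested genes rose and 3.56% fell.

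Fibril-associated matrix genes were examined in the same way. At 12 h 7 of 13 tested genes rose, with *Prelp* (1.98 ± 0.26), *Ogn* (1.503 ± 0.27) and *Fmod* (1.26 ± 0.14) called, all small leucine-rich proteoglycans that bind collagen. *Kera*, the keratan sulfate proteoglycan keratocan of the same family, was the gene that fell (-1.84 ± 0.31). Of 9 receptor genes 4 rose, with the collagen-binding integrin subunit *Itga11* called at 1.35 ± 0.12 and *Itga1* lowest at -0.34 ± 0.14. At 24 h *Itga11* was among 3 receptor genes that fell, where 3.56% of all tested genes fell. Of 10 tested genes for collagen breakdown and its inhibition 5 rose and 1 fell, with the gelatinase *Mmp9* at 1.29 ± 0.47 and cathepsin K, *Ctsk*, at -0.82 ± 0.29. Those that rose included *Timp2* (0.26 ± 0.05) and *Timp3* (0.26 ± 0.05), which encode inhibitors of metalloproteinases and not proteases. From 1 h to 24 h in DMSO, 15 of 15 tested fibril-associated genes rose (30.2% of all genes) and 12 were called higher (10.6%).

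Markers of the cell types in the bud moved as well. At 12 h, 4 of 5 chondrogenic markers rose and their summed level ran from 1764 to 2468 CPM in C59 and from 950 to 1007 CPM in DMSO. Among them *Sox9*, the regulator of cartilage fate, rose by 1.18 ± 0.08 on the log2 scale and *Matn1* by 1.81 ± 0.59. Of 7 ectoderm markers 6 rose (362 to 486 CPM against 259 to 290 CPM), of 5 endothelial markers 3 (328 to 362 CPM against 261 to 285 CPM) and of 5 macrophage markers 4 (33.4 to 35.1 CPM against 20.8 to 24.9 CPM). Of 5 genes listed as connective tissue markers 1 rose and 2 fell (477 to 594 CPM against 606 to 681 CPM). Of 5 limb mesenchyme markers 2 rose and 3 fell (1745 to 1912 CPM against 2055 to 2094 CPM). The connective tissue list held *Tcf4* (-0.40 ± 0.07, 1 of the 2 that fell), which is not *Tcf7l2*, the gene also called TCF4. Its sums, here and at the other times, are therefore not of connective tissue markers alone. The called genes of the connective tissue and limb mesenchyme lists were *Prrx2* (-1.11 ± 0.06), *Twist1* (-1.19 ± 0.05) and *Twist2* (-1.13 ± 0.19), while *Pdgfra* (0.56 ± 0.06) and *Osr2* (0.88 ± 0.17) were highest. In the macrophage list *Adgre1* (1.33 ± 0.24) and *Fcgr1* (1.47 ± 0.31) were called. Both tested tendon markers moved, *Scx* up by 0.45 ± 0.10 and *Mkx* by -0.54 ± 0.10 on the log2 scale (92.4 to 120 CPM against 85.5 to 93.6 CPM).

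The other lists were mixed at 12 h. Muscle markers summed to 106 to 137 CPM in C59 and 71.7 to 98.1 CPM in DMSO, with 2 of 5 higher and 2 lower, *Myog* of differentiating muscle at 1.56 ± 0.23 and *Pax3* of its precursors at -2.04 ± 0.18. Pericyte markers summed to 176 to 199 CPM against 189 to 210 CPM, erythroid markers to 4020 to 5984 CPM against 3112 to 4530 CPM and the 3 measured Schwann and crest markers to 14.1 to 27.2 CPM against 7.86 to 12.9 CPM. Among the pericyte markers, *Kcnj8* (1.79 ± 0.48, called) and *Cspg4* (0.96 ± 0.16) rose, and *Pdgfrb* fell (-0.19 ± 0.05). Of the osteoblast markers 1 of 3 tested fell, *Alpl*, their sum overlapped (40.0 to 58.9 CPM against 38.9 to 46.0 CPM), and *Ibsp*, a gene of mature osteoblasts, was at 0 in all libraries of both groups.

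At 1 h the sums of limb mesenchyme (1770 to 1842 CPM against 1861 to 1948 CPM) and connective tissue markers (386 to 423 CPM against 434 to 463 CPM) were already lower in all C59 libraries. So were those of tendon (48.1 to 51.7 CPM against 56.9 to 61.6 CPM) and osteoblast markers (28.7 to 30.6 CPM against 32.4 to 36.6 CPM), and no sum was higher in all C59 libraries. At 6 h chondrogenic markers summed to 943 to 1126 CPM in C59 and 803 to 858 CPM in DMSO, and connective tissue markers to 424 to 459 CPM and 492 to 551 CPM. The sum of limb mesenchyme markers was lower in all C59 libraries at 6 h (1722 to 1815 CPM against 2025 to 2115 CPM). The sums of tendon (97.7 to 102 CPM against 75.7 to 86.7 CPM), muscle (85.4 to 98.6 CPM against 59.3 to 63.3 CPM) and pericyte markers (226 to 238 CPM against 204 to 222 CPM) were higher. Within the limb mesenchyme, tendon and muscle lists, single markers moved both ways on the log2 scale. Examples were *Twist1* (-1.39 ± 0.04) against *Pdgfra* (0.44 ± 0.05), *Scx* (0.44 ± 0.06) against *Mkx* (-0.67 ± 0.10), and *Myog* (1.03 ± 0.12) against *Pax3* (-0.80 ± 0.10). At 24 h, 2.88% of all tested genes rose and 3.56% fell. At that time, when type I mRNA was lower in C59, chondrogenic markers summed to 1643 to 1831 CPM against 1335 to 1498 CPM, with 3 of 5 higher, endothelial markers to 239 to 260 CPM against 282 to 286 CPM, with 1 of 5 lower, and pericyte markers to 142 to 168 CPM against 185 to 192 CPM, with 1 of 4 lower. The sums of connective tissue markers (672 to 813 CPM against 815 to 845 CPM), limb mesenchyme markers (1902 to 2034 CPM against 2058 to 2090 CPM) and muscle markers (162 to 186 CPM against 189 to 214 CPM) were also lower in all C59 libraries at 24 h. Those of ectoderm (367 to 403 CPM against 315 to 322 CPM), tendon (114 to 125 CPM against 93.7 to 107 CPM) and macrophage markers (41.0 to 45.2 CPM against 34.6 to 37.4 CPM) were higher. The lowest edgeR adjusted p of a connective tissue or limb mesenchyme marker at 24 h was 0.0813. The part of any of these cell types in the collagen differences was not tested.

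The 10 genes varied together across the 30 libraries, which share the time course and the treatment. Pearson correlations of log2 CPM between the 45 pairs ran from 0.36, for *Col3a1* with its neighbour *Col5a2*, to 0.97, with a median of 0.77. After subtraction of the group means, so that only differences among replicates remained, all 45 pairs still had a positive correlation, with a median of 0.62 and a range from 0.08 to 0.89. The second DMSO library was the highest of its group in all 10 genes at 6 h and at 12 h and in 9 genes at 18 h, and the third C59 library in 9 genes at 24 h. Among 12531 genes with a mean of at least 1 CPM, the profiles most like the mean profile of the 10 genes were those of *Piezo2* (r = 0.97), *Adamts17* (0.97), *Svil* (0.97), *Col6a2* (0.97) and *Bnc2* (0.97). Within the set, *Col5a1* (0.97) and *Col6a1* (0.96) followed the mean most closely and *Col3a1* (0.72) and *Col14a1* (0.74) least. Each member is itself part of that mean, so these r values cannot be compared with those of genes outside the set.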

How the data were processed

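RNA of 30 mouse forelimb bud samples was sequenced as polyA-selected, paired-end libraries. The authors trimmed reads with Cutadapt 1.16 and deposited STAR 2.7.0e gene counts (mm10, custom annotation), unnormalized. The authors also deposited FPKM from cufflinks 2.2.1, unstranded, with multi-read and bias correction. The strand used for counting is not given in the sources used here.

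Counts of protein-coding autosomal genes entered the quasi-likelihood test of edgeR 4.0.16, run under R 4.3.3 (two-sided, TMM factors, filterByExpr with at least 10 counts, Benjamini-Hochberg over all tested genes), each comparison on its own libraries. FPKM served for levels and ratios. Gene types came from GENCODE M21, which matched 50628 count table genes and left out 205 (0.00676% of counts). Alternatives were DESeq2 1.42.0, limma 3.58.1 on log2 FPKM (pseudocounts 1 and 0.1), other normalizations, no filter, a shared spread, a replicate block and leaving out each library. The scripts were tested on simulated data.

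Named genes are the 10 members, *Axin2*, genes called, highest or lowest in each other list at 12 h (for marker lists, those of the cell types described), and the 5 profiles nearest the members' mean. *Timp2*, *Timp3*, *Cspg4* and *Tcf4* are named in addition. Other genes are given as counts. The members and lists were chosen with earlier results of these data known.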

Additional observations from a re-analysis of the deposited data

Results flagged for a closer look

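The effect of C59 differed between times for several collagen genes by the interaction test in edgeR, with values on the log2 scale as the later effect minus the earlier one. From 18 h to 24 h the effect changed by -0.90 for *Col1a1*, -0.44 for *Col1a2* and -0.50 for *Col5a1*. From 12 h to 24 h, a contrast chosen after seeing the data, it changed by -1.18 for *Col1a1*, -0.54 for *Col1a2*, 0.41 for *Col3a1*, -0.50 for *Col5a1*, -0.55 for *Col5a2* and -1.63 for *Col8a1*. Single values were not searched for outlying samples, since the groups hold 3 libraries each.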

How the results depend on the processing

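With 3 libraries a group and small fold changes, several results sit near the threshold. Across the alternatives other than leaving out a library, 992 results kept direction and side of the threshold, 29 newly passed, 27 no longer passed and 32 changed sign. When single libraries were left out, 845 stayed, 23 newly passed, 42 no longer passed and 50 changed sign. The cause of the changes of sign was not tested.

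With no minimum fold change the counts of genes in order of time were 1, 6, 6, 2 and 4, with 3 for the change from 18 h to 24 h, 6 from 12 h to 24 h and 7 for C59 at 12 h against DMSO at 24 h. The count by fold for the change from 6 h to 12 h was 1 in place of 0 with upper-quartile factors, no filter, limma at either pseudocount, all 30 libraries or the replicate block. Counts per kilobase gave chain ratios in DMSO at 24 h of 0.903 for type I, 1.15 for type V and 3.004 for type VI, and the lowest likeness of the 5 nearest profiles on log2 FPKM was 0.943.

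The replicate numbers did not pair the samples (correlations of same-numbered libraries from -0.133 to 0.103, with 0, 0, 2, 1 and 2 of 3 libraries nearest to their own number from 1 h to 24 h). With the replicate block, 108 member results stayed, 7 newly passed, 4 no longer passed and 1 changed sign.

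Signs changed as follows (log2). With limma (pseudocounts 1 and 0.1) the values were -0.00913 and -0.00979 for *Col5a1* at 1 h, 0.0429 and 0.0569 for *Col12a1* at 6 h, 0.00428 and 0.00452 for *Col6a1* at 24 h, 0.0401 and 0.0438 for *Col12a1* at 24 h, 0.0189 and 0.00402 for *Col6a1* and -0.158 and -0.213 for *Col14a1* from 6 h to 12 h, -0.102 and -0.110 for *Col5a1* and -0.0535 and -0.0751 for *Col6a1* from 12 h to 18 h, and 0.0372 and 0.0412 for *Col12a1* in C59 at 12 h against DMSO at 24 h. With pseudocount 1 alone, *Col5a2* was 0.00124 from 6 h to 12 h and *Col14a1* -0.107 from 12 h to 24 h, and with 0.1 alone *Col6a3* was 0.00235 at 6 h. *Col12a1* at 6 h was 0.000268 with DESeq2, 0.00174 with its size factors, 0.0212 with upper-quartile factors, 0.00180 over all libraries and 0.0227 with the replicate block. Upper-quartile factors gave 0.00552 for *Col8a1* at 24 h, 0.0213 for *Col1a2* from 6 h to 12 h, -0.0374 for *Col5a1* from 12 h to 18 h and 0.0102 for *Col12a1* in C59 at 12 h against DMSO at 24 h. *Col5a1* from 12 h to 18 h was -0.0184 without the filter and -0.0144 over all libraries.

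Leaving out single libraries gave counts by fold of 0 to 1 at 6 h (1 without the third DMSO or second C59 library), 1 to 2 at 12 h (2 without the third DMSO library), 0 to 1 for each change between neighbouring times from 6 h on, 4 to 7 for C59 at 24 h against 1 h and 2 to 4 for C59 at 12 h against DMSO at 24 h. Ranges that crossed 0 were -0.0876 to 0.0417 for *Col1a1* and -0.0312 to 0.0682 for *Col5a1* at 1 h, -0.182 to 0.161 for *Col6a3* and -0.133 to 0.243 for *Col12a1* at 6 h. At 24 h they were -0.108 to 0.0321 for *Col3a1*, -0.167 to 0.0145 for *Col5a1*, -0.0644 to 0.0450 for *Col6a1*, -0.124 to 0.114 for *Col8a1* and -0.242 to 0.0667 for *Col12a1*. From 6 h to 12 h they were -0.0814 to 0.0357 for *Col1a2*, -0.124 to 0.05004 for *Col5a2*, -0.186 to 0.0765 for *Col6a1* and -0.0937 to 0.661 for *Col14a1*. From 12 h to 18 h they were -0.106 to 0.111 for *Col5a1*, -0.0858 to 0.166 for *Col6a1* and -0.131 to 0.239 for *Col6a3*, and from 12 h to 24 h -0.363 to 0.402 for *Col14a1*. In C59 at 12 h against DMSO at 24 h they were -0.140 to 0.0396 for *Col5a2*, -0.299 to 0.227 for *Col8a1* and -0.220 to 0.111 for *Col12a1*.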
